A study of Mus musculus with 49 samples.

Results

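Intronic ATAC-seq peaks of naive CD4 T cells are stretches of open chromatin inside genes, between the exons. They were taken from the annotated peak table as every peak whose gene section was given as an intron, which made 22335 of 86911 peaks (25.7%). ATAC-seq cuts accessible DNA with a transposase, and the number of reads over a stretch of genome is read as its accessibility. The table held 6 libraries of untreated naive CD4 T cells from C57BL/6 mice at 0 h. The WT group had 3 libraries, and 3 libraries carried the genotype label Elf4 KO, a knockout of the ETS-family transcription factor ELF4. No promoter, Cre driver or deleted exon was given for the allele, and no animal, age or batch was given for a library, so p-values measure the spread between these libraries, which may be technical. RNA-seq of untreated naive CD4 T cells at 0 h (3 WT and 4 Elf4 KO libraries) gave expression of the genes that carried intronic peaks.

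Introns hold many of the enhancers of mammalian genes. Transcription factors bind these elements away from the promoter, open the chromatin and act on a promoter through looping. In T cells, ETS, RUNX and TCF/LEF factors are among the proteins that bind such elements.

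Neither the summed peaks nor the RNA of the targeted gene separated the groups. Elf4 carried 23 peaks, of which 20 were labelled 5′ UTR exon, 3 lay at the transcription start site (TSS) and 0 were intronic. Their summed levels in CPM (counts scaled to the library's total in peaks) were 85.0, 91.8 and 102 in the WT libraries and 95.7, 81.3 and 93.5 in the libraries labelled KO, so the groups overlapped. The peak at chrX:48432581-48433042 alone was lower in KO-labelled libraries without overlap (4.68, 3.35 and 3.09 against 2.12, 2.19 and 1.26 CPM). Those at chrX:48442120-48442763 (1.45, 1.07 and 1.13 against 2.55, 1.67 and 2.07 CPM) and chrX:48439700-48439861 (0, 0.152 and 0.412 against 0.438, 0.729 and 0.888 CPM) were higher without overlap. The other peaks of Elf4 overlapped. With 3 libraries per group, full separation of a peak gives p = 0.1 in a two-sided exact permutation test. The share of peaks without overlap over the whole data is not given here. Elf4 RNA was 191 ± 4.87 CPM (SD, n = 3) in WT and 189 ± 13.8 CPM (SD, n = 4) in KO-labelled libraries. No peak of Elf4 was at 0 in all KO-labelled libraries, and since the deleted part was not given, peaks and reads outside it check nothing. The group is therefore called by its label throughout.

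Sequence was at hand only for the few intronic peaks that reached a RefSeq start. RefSeq promoter windows (GRCm38.p6, 250 bases before to 50 after each start, 32851 windows) were overlapped by 107 of the 21719 intronic peaks on chromosomes with windows (0.493%). Among intronic peaks with a mean of at least 500 counts the overlap was 6 of 173 (3.47%), against 0.432% of those under 50. Strong peaks were also wider, with a median of 1181 bp at 500 counts or more. The median was 385 bp at 10 to 50 counts and 186 bp under 10. The part of width in the overlap was not tested. The window belonged to another gene than the one named for the peak in 98 of 115 pairs. The 3 windows printed here lie wholly inside the strongest such peaks and show the kind of sequence that an intronic peak of one gene can hold at the start of another. Capitals mark matches to the motifs searched. The Sirt2 intron 7 peak (chr7:28780251-28782070) holds the window of Gm19897 (chr7:28781465-28781764, minus strand) with 1 TCF/LEF match, the Gm2682 intron 1 peak (chr15:60141471-60142163) holds that of Gm41331 (chr15:60141576-60141875, plus strand) with 2 RUNX matches, and the Ptdss2 intron 1 peak (chr7:141122750-141123661) holds that of Gm33560 (chr7:141122981-141123280, plus strand) with 4 GC box matches.
Gm19897 window in Sirt2: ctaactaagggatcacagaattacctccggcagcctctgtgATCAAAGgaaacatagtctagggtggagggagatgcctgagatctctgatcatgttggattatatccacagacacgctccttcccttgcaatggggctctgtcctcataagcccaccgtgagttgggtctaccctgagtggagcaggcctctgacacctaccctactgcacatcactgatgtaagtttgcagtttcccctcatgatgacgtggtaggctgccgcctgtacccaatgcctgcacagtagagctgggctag
Gm41331 window in Gm2682: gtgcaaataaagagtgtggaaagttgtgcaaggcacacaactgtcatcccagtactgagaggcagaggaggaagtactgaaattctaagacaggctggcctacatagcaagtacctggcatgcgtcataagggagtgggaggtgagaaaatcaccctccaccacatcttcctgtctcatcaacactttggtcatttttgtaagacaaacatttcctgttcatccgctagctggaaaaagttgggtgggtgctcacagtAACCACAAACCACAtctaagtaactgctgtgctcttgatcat
Gm33560 window in Ptdss2: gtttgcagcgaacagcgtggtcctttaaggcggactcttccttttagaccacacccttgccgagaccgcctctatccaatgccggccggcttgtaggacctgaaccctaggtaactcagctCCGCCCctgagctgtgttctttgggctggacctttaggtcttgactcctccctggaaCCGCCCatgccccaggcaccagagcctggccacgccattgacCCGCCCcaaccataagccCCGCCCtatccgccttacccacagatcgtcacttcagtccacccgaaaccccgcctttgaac

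The Sirt2 peak was among the 10 strongest intronic peaks. Its level was 120, 122 and 133 CPM in WT and 125, 111 and 121 CPM in KO-labelled libraries. The Gm2682 peak had 71.2, 75.5 and 80.1 CPM in WT and 75.3, 62.1 and 66.3 CPM in KO-labelled libraries. The Ptdss2 peak had 57.3, 66.0 and 61.2 CPM in WT and 60.6, 61.9 and 66.7 CPM in KO-labelled libraries. The groups overlapped in all 3. Both strands of the windows were searched. Of the 95 windows that an intronic peak overlapped, 12 (12.6%) held the RUNX letters TGTGGTT, against 5.27% of all windows. The ETS letters CGGAAG were in 13 (13.7%) against 16.9%, and the GC box letters GGGCGG in 15 (15.8%) against 35.7%. The TCF/LEF letters CTTTGAT stood in 2 windows (2.11%, against 3.73% of all), the AP-1 letters TGANTCA in 7 (7.37%, against 7.81%) and the CTCF core letters AGGGGGC in 11 (11.6%, against 10.6%). The windows in intronic peaks had a median of 50% G and C and 6 CpG dinucleotides, and all windows had 52.7% and 7. These shares are descriptions of 95 windows and not of intronic peaks at large.

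**Figure D1:**
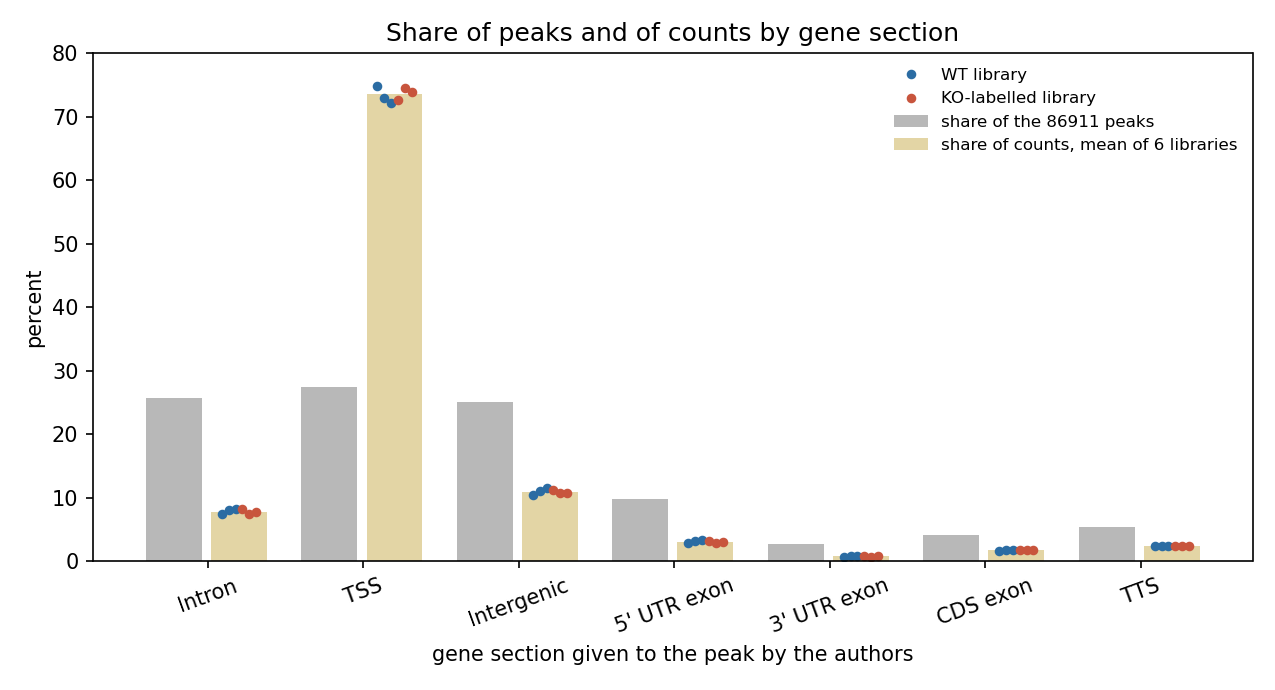
Share of peaks and of peak counts by gene section (percent), with points for the 6 libraries. Introns hold 25.7% of the peaks but 7.35% to 8.13% of the counts, and the WT and KO-labelled points overlap.

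Intronic peaks were many, narrow and weak. They held 7.35%, 7.98% and 8.13% of peak counts in WT (7.82 ± 0.414%, SD, n = 3) and 8.12%, 7.37% and 7.67% in KO-labelled libraries (7.72 ± 0.374%, SD, n = 3). The difference was −0.0999 percentage points and did not exceed the spread (exact permutation test, two-sided, p = 0.9, where the smallest possible p is 0.1). Peaks at the TSS held 73.5% of counts and intergenic peaks 10.9%. The median intronic peak was 294 bp wide with 3.12 CPM per kb, and the median TSS peak 544 bp wide with 11.3 CPM per kb. Intergenic peaks resembled intronic ones, with 3.51 CPM per kb.

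Depth limits what single intronic peaks can show. The libraries had 6191593, 6557786 and 9713279 counts in peaks in WT and 13708125, 9608651 and 13513574 in the KO-labelled group, so the latter were deeper in all but 1 pair of libraries. In intronic peaks they had 455041 to 789539 counts in WT and 708579 to 1112702 in KO-labelled libraries. The median intronic peak had 5, 5 and 8 counts in the WT libraries and 12, 8 and 11 in the KO-labelled ones. Peaks at 0 made up 4.89% to 9.82% of intronic peaks in WT and 2.01% to 4.17% in KO-labelled libraries. A mean under 10 counts was found for 12287 intronic peaks (55.0%), a mean of at least 50 for 3044 and of at least 500 for 178. The 1000 strongest held 48.7% of all intronic counts.

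Most intronic peaks lay far from any start site. The median distance to the nearest RefSeq start was 20881 bp. Of the 21719 intronic peaks with such a distance, 6.14% were nearer than 1 kb, 22.8% at 1 to 10 kb, 47.2% at 10 to 50 kb and 23.8% at 50 kb or more. The first intron held 9234 peaks (41.3%) and intron 2 held 4541 (20.3%). Introns 3 and 4 held 2170 and 1463 peaks, introns 5 to 9 held 2865, introns 10 to 19 held 1486, and later introns 576. The median strength was 3.00 to 3.19 CPM per kb in each of these classes, so later introns held fewer peaks of about the same strength. Over 14527 intronic peaks in genes of at least 20000 bp, the first of 5 equal stretches from gene start to gene end held 23.9% of the peaks and the last 15.4%. Touching neighbours were common: 45.9% of intronic peaks abutted another, and joining them gave 17180 stretches.

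The intron label may not hold every peak inside a gene body. Of the peaks labelled 5′ UTR exon, 7086 (84.0%) lay 1 kb or more from every RefSeq start, with a median width of 294 bp and 3.25 CPM per kb, close to the intronic values. Foxp1, a forkhead factor of naive T cells, had 113 peaks with that label over 481 kb and 17 intronic ones. Bach2, a repressor that restrains T cell differentiation, had 103 over 242 kb and 10 intronic ones. Tcf7, the partner of Lef1 in naive T cells, had 11 such peaks and 0 intronic ones. Whether peaks with this label lie inside their gene was not tested. In Fgfr2 they cannot all do so, since its 69 ran over 2483 kb, against a RefSeq length of 104 kb. Counts of intronic peaks per gene may therefore understate open chromatin in genes such as Foxp1, Bach2 and Tcf7.

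The 22335 peaks fell in 5765 genes. A single intronic peak was found in 2050 genes (35.6%), and 477 genes with 10 or more held 37.6% of the peaks. Galnt2l stood first with 93, all in intron 1, but its peaks ran from chr8:120063362 to chr8:124177791, over 4114 kb, a stretch that also contains the peaks of Gse1. Wwox, an oxidoreductase gene that spans a fragile site, had 63 over 774 kb and none in intron 1. Bcl11b, the zinc finger factor of T cell commitment, had 58 within 83.9 kb, all in intron 1. Arid1b, a subunit of BAF chromatin remodellers, had 57, and Ets1, an ETS factor of T cells, had 53. Arhgef3, a guanine nucleotide exchange factor, and Lef1, an HMG-box factor of naive T cells, each had 50. Gse1, Maml2 (a Notch co-activator) and Pde4d (a cAMP phosphodiesterase) each had 46.

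**Figure D2:**
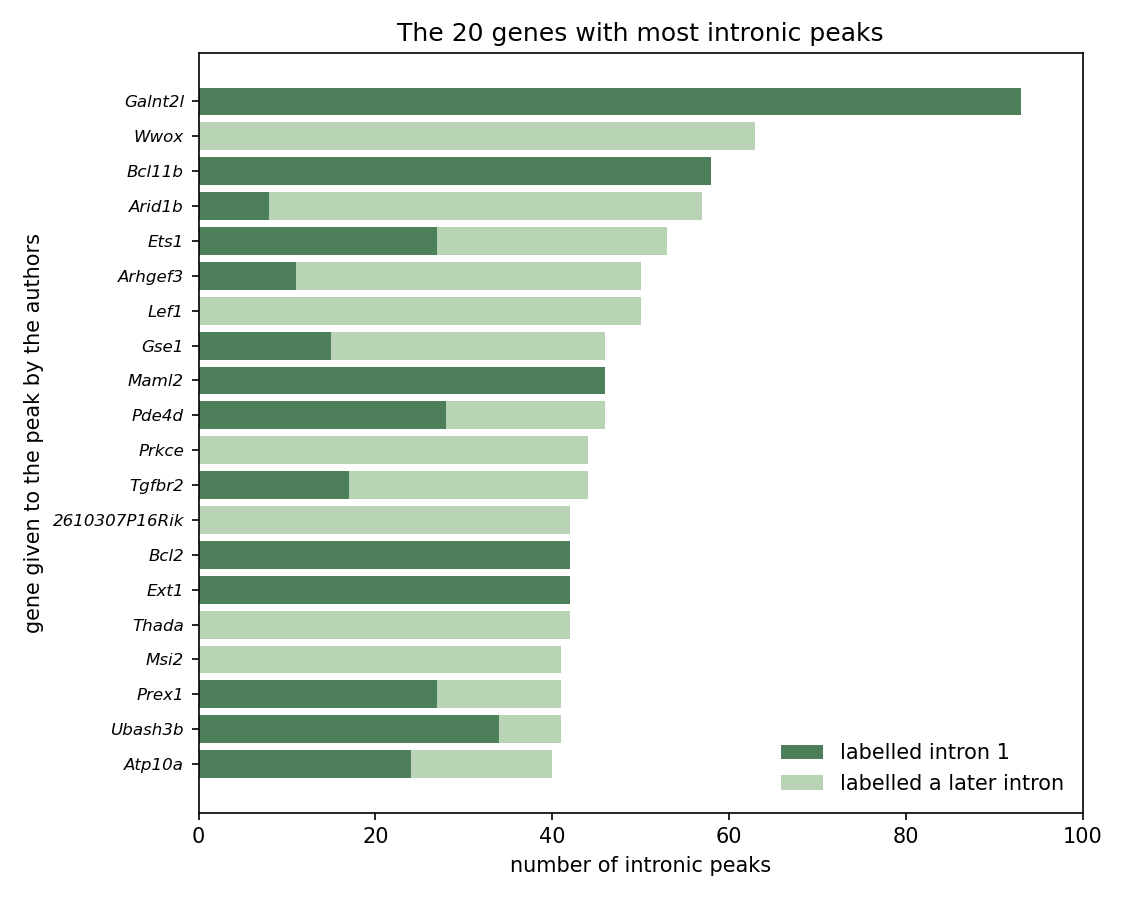
Number of intronic peaks (x axis) of the 20 genes with most of them, split into peaks labelled intron 1 and peaks in later introns. Galnt2l leads with 93, all 58 peaks of Bcl11b are in intron 1, and Wwox and Lef1 have none there.

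The genes with most intronic peaks ranged widely in RNA. In WT libraries Ets1 RNA stood at 1222 ± 6.08 CPM, Bcl11b at 369 ± 11.9 CPM and Lef1 at 218 ± 14.8 CPM, while Wwox stood at 3.25 ± 0.372 CPM (SD, n = 3 each). Across genes with an RNA value, median WT RNA was higher the more intronic peaks a gene had: 2.35 CPM with none (16028 genes), 6.90 with 1 (1372 genes), 7.77 with 2 to 4 (1671 genes), 16.0 with 5 to 9 (705 genes), 21 with 10 to 19 (304 genes) and 39.1 with 20 or more (130 genes). Genes with intronic peaks but no RNA value, such as Ebf1 and Spi1, are not in these classes. Median gene length over the same classes was 8.9, 29.2, 43.2, 72.5, 115 and 209 kb, also in rising order. The part of length in this pattern was not tested, and RNA in CPM is not scaled to length.

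**Figure D3:**
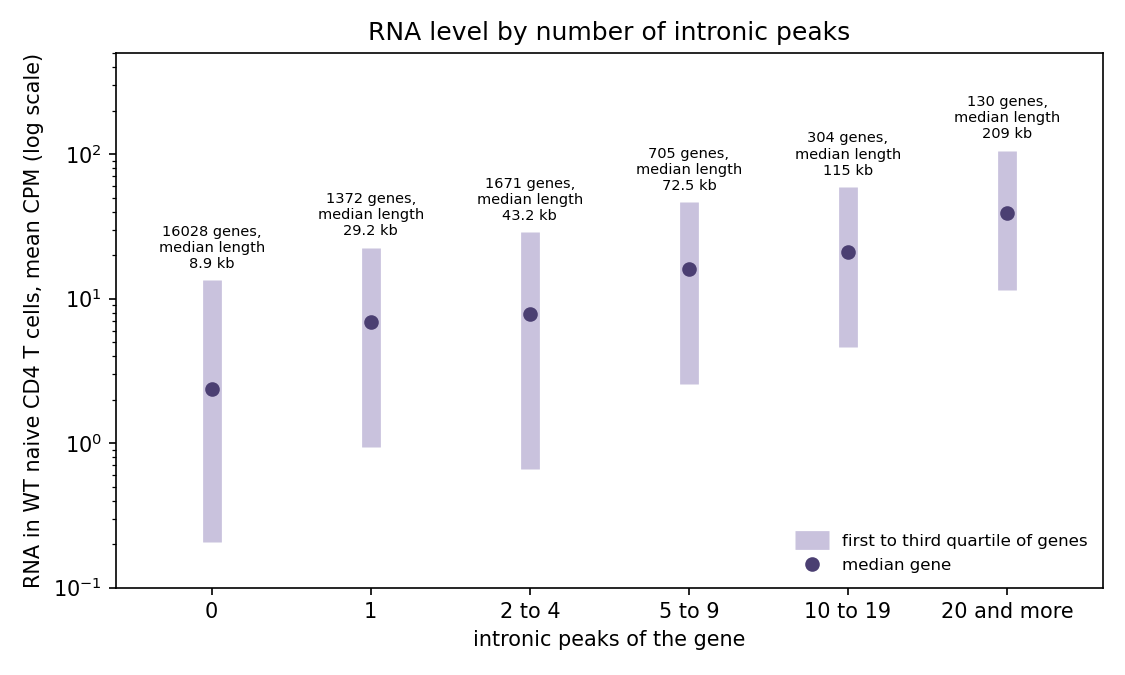
Mean RNA CPM in the 3 WT naive CD4 libraries (log axis) of genes grouped by their number of intronic peaks, with the median gene as a point and the interquartile range of genes as a bar. The median goes from 2.35 CPM with no intronic peak to 39.1 CPM with 20 or more, and median gene length goes from 8.9 to 209 kb.

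In the genes with most intronic peaks, the summed intronic signal differed little between the groups. Values here are normalised CPM scaled to the library's intronic counts. Bcl11b had 3873, 3960 and 4250 in WT and 3848, 3614 and 3875 in KO-labelled libraries, with a log2 fold change of −0.09 (SE 0.081). Ets1 had 3399, 3796 and 3878 against 3916, 3493 and 3835, a log2 fold change of 0.02. Lef1 had 3351, 3421 and 3487 against 3588, 3117 and 3523, a log2 fold change of −0.00. These 3 genes for T cell factors overlapped between groups. Wwox had 3412, 3488 and 3636 in WT and 3155, 2813 and 2997 in KO-labelled libraries, and its groups did not overlap. Its log2 fold change was −0.23 (SE 0.082, edgeR quasi-likelihood, adjusted p = 0.371). The sums of Arid1b, Maml2 and 2610307P16Rik did not overlap either and were lower in KO-labelled libraries, with log2 fold changes of −0.12, −0.19 and −0.20. With 3 libraries per group, full separation gives p = 0.1 in a two-sided exact permutation test. The share of sums without overlap over all genes is not given here. Among the 20 genes Gse1 had the highest log2 fold change, 0.16, at 1322 ± 54.4 and 1481 ± 116 (SD, n = 3 each). Over the 20 genes with most intronic peaks the log2 fold changes ran from −0.23 to 0.16, and most were below 0. Their SEs were 0.079 to 0.095, and none passed the test. Of their 477 intronic peaks tested singly, 11 had a higher and 19 a lower level in KO-labelled libraries at an unadjusted p under 0.05 (6.29%). That share was 7.58% over all intronic peaks tested and 9.87% over all peaks tested, and the median log2 fold change of the 477 was −0.06.

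The strongest intronic peaks of these genes gave the most precise single values. The Bcl11b peak (chr12:107920691-107921915, intron 1) had 358, 427 and 700 counts in WT and 1038, 545 and 907 in KO-labelled libraries, or 66.5 ± 3.76 and 67.1 ± 8.76 normalised CPM (SD, n = 3 each). The Lef1 peak (chr3:131117517-131118343, intron 3) had 244, 284 and 494 against 628, 430 and 604 counts, or 45.5 ± 3.63 and 45.5 ± 0.351 normalised CPM. After normalisation the groups overlapped at both. The Ets1 peak (chr9:32731413-32732397, intron 3) had 42.5, 45.0 and 43.2 normalised CPM in WT and 50.3, 50.6 and 56.0 in KO-labelled libraries. All its KO-labelled values were above all WT values, with a log2 fold change of 0.26 (SE 0.084), and it missed the threshold in edgeR's test (adjusted p = 0.349). The Arhgef3 peak (chr14:27229059-27230398, intron 4) had 46.5, 48.7 and 47.3 against 39.7, 36.5 and 37.4 normalised CPM. It lay lower in every KO-labelled library, by 0.32 on the log2 scale (log2 fold change −0.32, SE 0.084), and also missed the threshold (edgeR, adjusted p = 0.304). The strongest peaks of Arid1b and Maml2 were lower without overlap too, with log2 fold changes of −0.098 and −0.12, and missed the threshold. Those of Galnt2l, Wwox, Gse1 and Pde4d overlapped between groups.

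The strongest intronic peaks of all began with a pair in numbered gene models. The Gm33838 peak (chr9:35305218-35305591) had 3120, 2848 and 673 CPM in WT and 1093, 2321 and 1743 CPM in KO-labelled libraries. In each library this was 284% to 333% of the level of a peak at chr14:19416829-19417973, labelled as the end of Gm21738. The Gm49817 peak (chr10:96077525-96077894) had 857, 366 and 373 against 681, 554 and 455 CPM, and was 4.21% to 4.65% of the level of a peak at the start of Gm28439 (chr1:24611662-24616035). Each moved with a peak on another chromosome. Whether the same reads match both places was not tested, and the sequence of these peaks was not examined. The Gm33838 and Gm49817 peaks together held 2.97% of intronic counts. The other 8 of the 10 strongest were in Gm20139, 8430426J06Rik, Foxk1, Pde4d, Rgs10, Sirt2, Smad7 and Ski. Foxk1, a forkhead repressor, had 149 ± 9.38 and 146 ± 4.63 normalised CPM (SD, n = 3 each) at chr5:142440005-142442048. Smad7 and Ski, both inhibitors of TGF-beta signalling, had log2 fold changes of −0.15 (SE 0.067) and −0.09 (SE 0.067). Over the 8 peaks the log2 fold changes ran from −0.15 to 0.05, and none passed the test.

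Lists of genes known in T cells differed in how many of their genes carried intronic peaks. Over the 20210 genes with an RNA value, 16028 carried none. The part of gene length and RNA level in the shares below was not tested. Naive and quiescence regulators had intronic peaks in 16 of 25 genes, 380 in all, and the strongest lay in Ikzf1, an Ikaros-family factor, at chr11:11725610-11726887 (112 ± 5.62 and 120 ± 16.1 normalised CPM, SD, n = 3 each). T cell receptor signalling genes had them in 25 of 33 genes, 258 in all, among them a peak of Ptprc, the CD45 phosphatase gene, at chr1:138136139-138137435 (59.2 ± 6.25 and 55.8 ± 7.39 normalised CPM). T helper lineage regulators had 180 in 23 of 40 genes, and their strongest was in Smad3, a TGF-beta transducer, at chr9:63720048-63721970. The Smad3 peak had 70.7, 66.1 and 69.1 normalised CPM in WT and 64.1, 52.1 and 60.0 in KO-labelled libraries, without overlap (log2 fold change −0.22, SE 0.087, edgeR adjusted p = 0.427). ETS factors had 93 in 11 of 25 genes, homing and migration genes 102 in 13 of 27, and inflammation genes 30 in 7 of 30. Among the last, the receptor gene Tnfrsf1b had 45.1 ± 6.43 and 41.9 ± 7.61 normalised CPM at chr4:145235569-145236707.

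No intronic peak of these lists was called. At an unadjusted p under 0.05 (7.58% of intronic and 9.87% of all peaks tested), 2 higher and 5 lower peaks were found among 190 tested in naive and quiescence regulators, 4 and 6 of 121 in T cell receptor signalling, and 2 and 4 of 93 in T helper regulators. The ETS factors had 3 higher and 1 lower of 43, the homing genes 2 and 1 of 49, and the inflammation genes 1 and 1 of 17. Median log2 fold changes were 0.01, −0.03, −0.01, −0.06, −0.05 and −0.10 in the order named, beside −0.01 over all intronic peaks tested. At an adjusted p under 0.05 edgeR called 0 peaks of any list.

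Markers of other cell types were few in the introns. All sums over introns given here are normalised CPM unless another scale is named. Summed normalised CPM over the introns of 12 CD4 T cell markers (7 with intronic peaks, 137 peaks) was 749 to 824 in WT and 715 to 822 in KO-labelled libraries. B cell markers had 11.2 to 12.6 and 12.3 to 12.8 CPM, all from Ebf1, 1 of 10 genes. Over all sections 4 of the 10 had a peak, Ebf1 and, at the TSS only, Cd22, Cr2 and Pax5, while Ms4a1, Cd79a and Cd79b had none. Their sum over all sections was 20.8 to 25.7 normalised CPM in WT and 26.1 to 27.2 in KO-labelled libraries, and the groups did not overlap. CD8 and NK cell markers had 3.57 to 5.53 and 2.54 to 3.94 CPM, from Prf1 and Cd8b1. Regulatory T cell markers had 91.9 to 103 and 94.1 to 108 CPM, from Il2ra, Ikzf2 and Ctla4 but 0 intronic peaks in Foxp3. Activated or memory markers had 117 to 149 and 113 to 142 CPM in 3 of 10 genes, myeloid markers 20.7 to 22.5 and 18.7 to 22.0 CPM from Itgam and Spi1, and stromal markers 106 to 112 and 89.9 to 102 CPM from Pecam1 alone. The intronic ranges overlapped between groups in every list except the stromal one, that is Pecam1. Scaled to the total in peaks alone Pecam1 overlapped too, at 97.4, 109.6 and 110.3 CPM in WT and 101, 87.8 and 101 CPM in KO-labelled libraries. Pecam1 is also transcribed in these WT cells (RNA 107 ± 6.78 CPM, SD, n = 3). In bulk cells, fewer cells of a type and less accessibility per cell cannot be told apart, and the part of cell makeup in the results below was not tested.

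**Figure D4:**
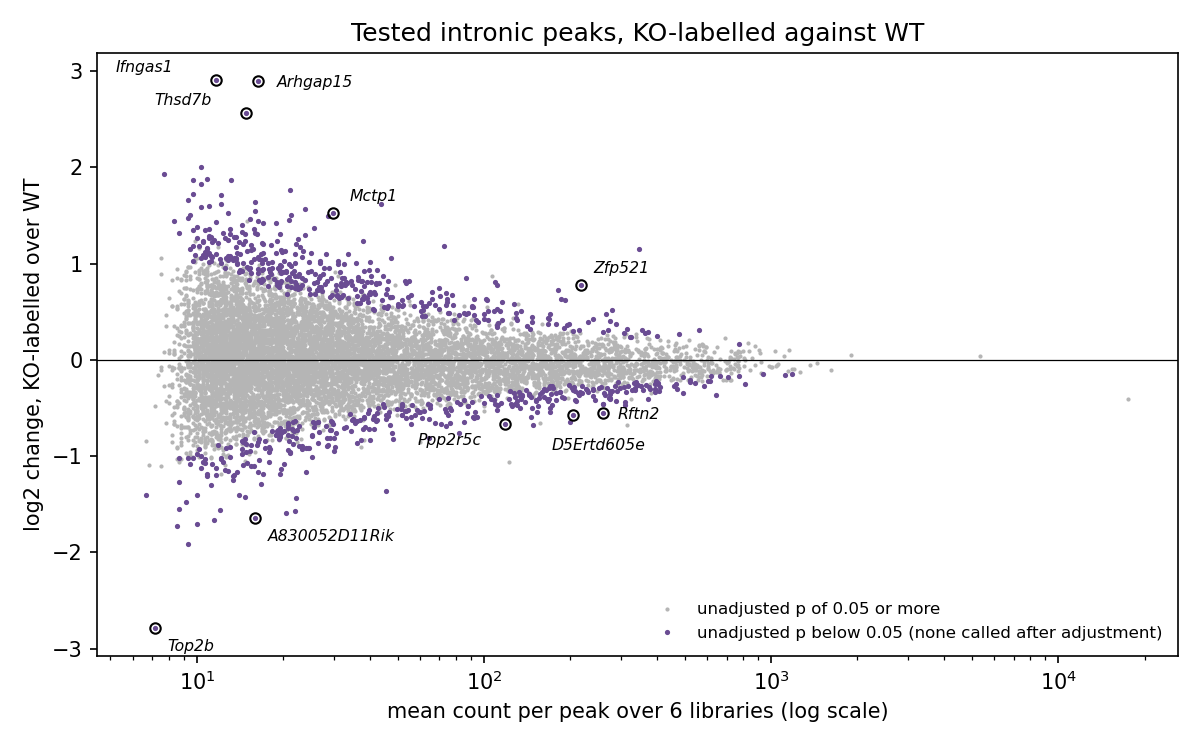
Log2 fold change of each tested intronic peak (KO-labelled over WT) against its mean count over the 6 libraries (log axis), with the 10 peaks of lowest p named. The 10204 points have a median of −0.01 and spread more at low counts, and none of the purple points with an unadjusted p under 0.05 was called after adjustment.

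No intronic peak differed between KO-labelled and WT libraries at an adjusted p under 0.05. Enough counts for a test were found in 10204 intronic peaks (45.7%), and edgeR's quasi-likelihood test called 0 higher and 0 lower. Over all 47000 peaks tested it called 4 (0.00851%), with 0.00638% higher and 0.00213% lower. At an unadjusted p under 0.05 there were 396 intronic peaks higher and 377 lower, or 7.58% of those tested. That compares with 9.87% of all peaks (5.95% higher and 3.93% lower) and 13.5% of TSS peaks. The smallest adjusted p among intronic peaks was 0.103. DESeq2 called 3 higher, in Kpna3, Zfp521 and Arhgap15, and 0 lower.

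The precision of this comparison depended on peak strength. The middle 95% of log2 fold changes ran from −0.75 to 0.88, and 230 peaks (2.25%) were beyond 1 in either direction. In peaks with a mean under 10 counts the median SE was 0.529, and at 10 to 50 counts it was 0.369. At 50 to 200 counts the median SE was 0.192, with 95% of log2 fold changes between −0.48 and 0.50. At 200 to 500 counts it was 0.120 (−0.38 to 0.28), and at 500 or more 0.087 (−0.23 to 0.16). Weak peaks could therefore show only large differences. The shares at an unadjusted p under 0.05 were 7.79% in first introns and 7.43% in later ones.

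The intronic peaks of lowest p that were higher in the KO-labelled group lay mostly at low counts. The Zfp521 peak, in intron 2 of a zinc finger factor gene (chr18:13786651-13787606), had 104, 96 and 140 counts in WT and 355, 273 and 340 in KO-labelled libraries. Normalised, this was 18.3, 14.9 and 14.1 against 25.8, 29.1 and 25.4 CPM, a log2 fold change of 0.78 (SE 0.132, edgeR adjusted p = 0.103). The Arhgap15 peak, in intron 2 of a Rac inhibitor gene (chr2:43787209-43787492), had 2, 2 and 3 against 47, 17 and 27 counts, a log2 fold change of 2.90 (SE 0.496). The Ifngas1 peak, in the long noncoding RNA beside Ifng (chr10:118550357-118550682), had 1, 2 and 2 against 28, 17 and 20 counts (log2 fold change 2.90, SE 0.528). The Thsd7b peak (chr1:129651568-129651903) had 4, 2 and 2 against 34, 24 and 23 counts, with a log2 fold change of 2.56. The Mctp1 peak (chr13:76858038-76858485) had 5, 11 and 15 against 50, 33 and 65 counts, with a log2 fold change of 1.52. The Zfp521 peak was the only one of these 5 that reached the minimum for a test (1.04 CPM) in all 3 libraries of both groups. Arhgap15, Ifngas1 and Thsd7b reached it in 0 WT and 3 KO-labelled libraries, so these peaks entered the test only through the group in which they were high, and their separation supports nothing. Of the 10204 peaks tested, 113 entered in this way and 33 only through the WT libraries. Among the 6796 that reached the minimum in all 6 libraries, 217 were higher and 306 lower at an unadjusted p under 0.05. The WT libraries had fewer counts on average, and scaling to library totals does not remove the noise of low counts. With counts thinned to the smallest library, 7586 intronic peaks were tested and edgeR called 0 in either direction. At an unadjusted p under 0.05, 255 of them were higher and 302 lower. The part of depth in the peaks named here was not tested.

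Among those lower in the KO-labelled group the best measured was in Rftn2, a raftlin gene (intron 1, chr1:55215132-55216157). Normalised, it had 30.9, 35.2 and 32.9 CPM in WT and 24.2, 20.6 and 22.7 in KO-labelled libraries, with a log2 fold change of −0.55 (SE 0.109, edgeR adjusted p = 0.168). Rftn2 RNA was 3.41 ± 0.461 CPM (SD, n = 3) in WT and 2.25 ± 0.601 (SD, n = 4) in KO-labelled libraries, which missed the threshold in limma's test (adjusted p = 0.0779). The Ppp2r5c peak, in a regulatory subunit gene of phosphatase PP2A (chr12:110498747-110499395), had 17.6, 14.9 and 15.2 against 10.5, 10.2 and 9.19 normalised CPM, a log2 fold change of −0.67. Its RNA had a log2 fold change of −0.07. The Top2b peak, in a topoisomerase gene (chr14:16372010-16372239), had 10, 12 and 13 counts in WT and 2, 4 and 2 in KO-labelled libraries, a log2 fold change of −2.79 (SE 0.562), and entered the test only through the WT libraries. Its RNA was 56.8 and 60.2 CPM. The noncoding genes A830052D11Rik and D5Ertd605e completed the 5, with log2 fold changes of −1.65 and −0.57. None of these 5 passed the test.

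**Figure D5:**
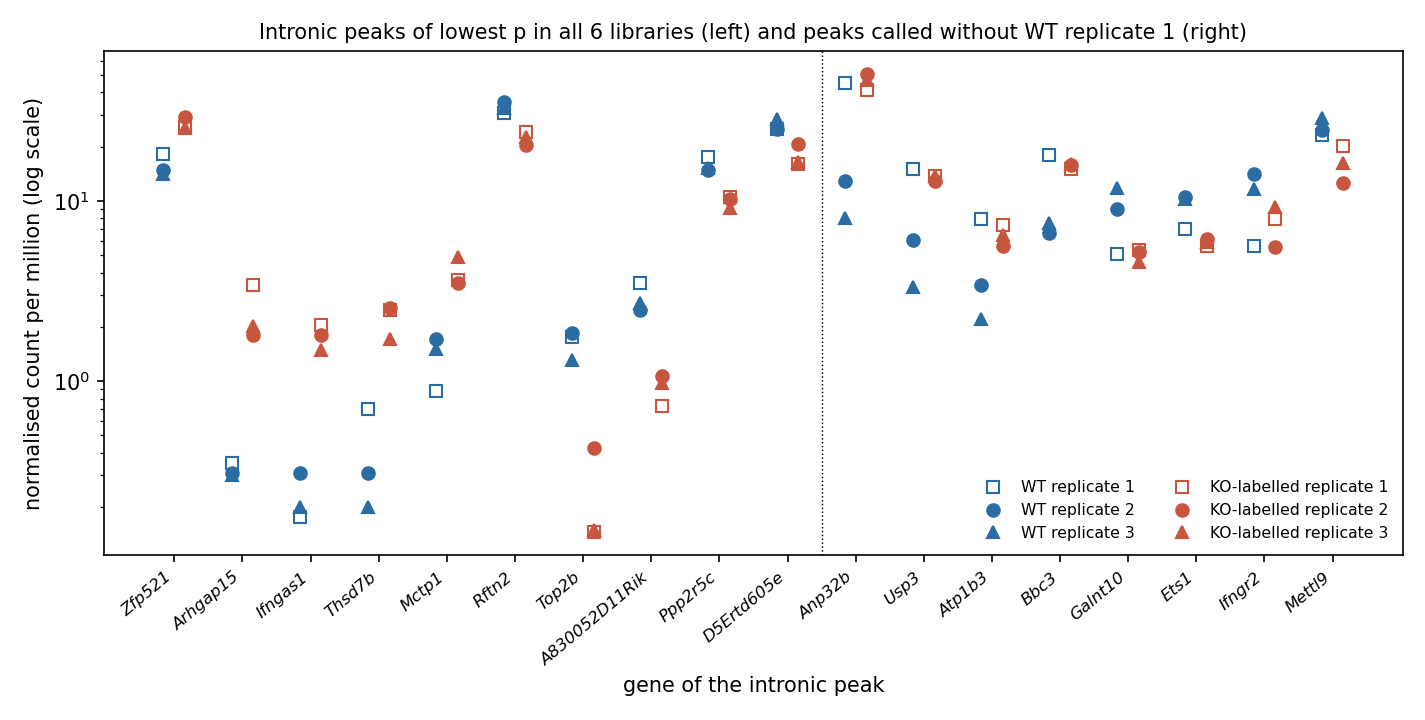
Normalised CPM (log axis) by library for the 10 intronic peaks of lowest p with all 6 libraries (left) and 8 peaks called without WT replicate 1 (right), with a symbol for each replicate. The Zfp521 and Rftn2 values on the left separate the groups, while at Anp32b the open square of WT replicate 1 (45.1) lies among the KO-labelled libraries.

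The count of called intronic peaks rested on 1 WT library. Without WT replicate 1, 93 of 11192 intronic peaks tested passed (0.831%), 53 higher and 40 lower in the KO-labelled group, in 90 genes. Over all peaks tested without that library, 4.13% passed, with 3.76% higher and 0.375% lower. Leaving out any other library called 0 intronic peaks. The 93 peaks passed only with WT replicate 1 left out, so its place in them is partly fixed by that choice. Its values there are a description of these peaks and not of intronic peaks at large. Across the 93 peaks, WT replicate 1 lay a median of 59.5% of the way from the mean of the other WT libraries to the KO-labelled mean, 45.6% for the 53 higher and 75.1% for the 40 lower. It lay within the range of the KO-labelled libraries in 22, beyond them in 13, between the other WT libraries in 5 and on their far side in 12. An unadjusted p under 0.05 in all 6 libraries was found for 74 of the 93. WT replicate 1 had the fewest counts in peaks (6191593), and 12.1% of its counts lay in the 20 strongest peaks of the table, against 8.51% and 3.85% in the other WT and 5.99% to 8.43% in KO-labelled libraries.

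The peaks described next were chosen after their values were seen, from those called without WT replicate 1 that had a mean of at least 50 counts and no overlap between the other WT libraries and the KO-labelled ones. Weaker peaks outside that choice moved further when the library was left out. The Anp32b peak, in intron 1 of a histone chaperone gene and 763 bp from a RefSeq start (chr4:46451689-46452648), had 45.1, 12.9 and 8.04 normalised CPM in WT and 41.3, 50.4 and 46.6 in KO-labelled libraries. Its log2 fold change was 1.15 (SE 0.397, edgeR adjusted p = 0.383) with all libraries and 2.20 (SE 0.154, edgeR adjusted p = 3.05e-10) without WT replicate 1. The Usp3 peak (chr9:66592299-66592770) had 15.1, 6.05 and 3.32 against 13.8, 12.9 and 13.8, and the Bbc3 peak, in the gene of the pro-apoptotic protein PUMA (chr7:16314075-16314346), 18.1, 6.67 and 7.54 against 15.0, 15.8 and 16.0. In these 3 WT replicate 1 stood with or near the KO-labelled libraries and above the other WT ones. In the other direction, the Galnt10 peak (chr11:57685878-57686273) had 5.09, 9.00 and 11.8 against 5.31, 5.22 and 4.56. The Ifngr2 peak, in the gene of an interferon gamma receptor chain (chr16:91547934-91548860), had 5.62, 14.1 and 11.7 against 7.93, 5.54 and 9.27. An Ets1 intron 1 peak (chr9:32712711-32713260) had 7.02, 10.5 and 10.2 against 5.60, 6.18 and 5.90, so that WT replicate 1 was nearest to the KO-labelled libraries but did not overlap them. Which library departs from its group for a technical reason was not tested.

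Summed over introns, Thsd7b was the only gene called. Thsd7b encodes a thrombospondin-repeat protein, and its 4 intronic peaks summed to 29.2, 19.6 and 15.5 normalised CPM of intronic counts in WT and 85.8, 67.3 and 66.2 in KO-labelled libraries. The groups did not overlap, with means of 21.4 ± 7.05 and 73.1 ± 11.0 (SD, n = 3 each) and a log2 fold change of 1.83 (SE 0.293, edgeR adjusted p = 0.0176). Counts were low, and the sum includes the Thsd7b peak named above, which reached the minimum for a test in 0 WT libraries. That peak had 4, 2 and 2 counts in WT and 34, 24 and 23 in KO-labelled libraries. Of the rest, the peak with most counts had 7, 5 and 8 against 46, 13 and 34. The sum itself reached its minimum (13.4 CPM) in all 3 libraries of both groups. Whether the call holds without the named peak was not tested. Of 4523 genes tested the call of Thsd7b made 0.0221%, and 9.29% had an unadjusted p under 0.05, 228 higher and 192 lower. The call was lost without WT replicate 2 (adjusted p = 0.132), without KO-labelled replicate 1 (adjusted p = 0.14) and without KO-labelled replicate 3 (edgeR adjusted p = 0.0608). The next genes missed the threshold: Dgki, a diacylglycerol kinase, at 1.14 (SE 0.224, edgeR adjusted p = 0.0795), Hunk, a kinase, at 0.94, Fmnl2, a formin, at 0.59 and Rftn2 at −0.53, all log2 fold changes. Hunk had 78.7, 90.2 and 72.2 in WT and 129, 154 and 177 in KO-labelled libraries, without overlap. Rftn2 had 499, 522 and 466 against 359, 306 and 360, also without overlap.

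Genes with intronic peaks were called in RNA, while only 1 of 4523 genes tested was called on its intronic sum. In naive CD4 RNA, limma on log2(CPM + 1) called 345 of 3240 genes with an intronic peak (10.6%), 208 higher and 137 lower in KO-labelled libraries. That count was 168 without WT replicate 1, 201 without WT replicate 3, 195 without KO-labelled replicate 1 and 188 without KO-labelled replicate 2. Over all 12902 genes tested 8.03% were called (4.39% higher and 3.64% lower), and 7.15% of genes without an intronic peak. Of genes with 10 or more intronic peaks, 47 of 379 (12.4%) were called. The difference between these shares was not tested. Of the called genes, 271 had enough intronic counts for a test, 37 had an unadjusted p under 0.05 there (13.7%, against 9.29% of all genes tested on intronic sums) and 0 were called. The difference between this pair of shares was not tested. RNA and intronic sums changed in the same direction in 158 of the 271 genes and in 29 of the 37. No such share over all genes was computed, and these directions were not tested.

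Lef1 RNA rose from 213, 235 and 207 CPM in WT to 311, 287, 281 and 254 CPM in KO-labelled libraries, without overlap (log2 fold change 0.37, SE 0.082, limma adjusted p = 0.018). Its 50 intronic peaks kept a summed log2 fold change of −0.00 (SE 0.084). Ahnak, a giant scaffold protein gene with 7 intronic peaks, rose from 65.2 ± 8.22 CPM (SD, n = 3) to 132 ± 16.9 CPM (SD, n = 4), with an intronic log2 fold change of −0.05 (SE 0.097). Epas1, a hypoxia-inducible factor gene with 7 intronic peaks, fell from 13.9 ± 1.44 to 6.22 ± 0.675 CPM, with −0.06 (SE 0.117) in its introns. Nav2, with 11 intronic peaks, rose from 6.14 ± 0.315 to 15.2 ± 2.22 CPM, with −0.21 (SE 0.128) in its introns. Ifit1bl1, an interferon-induced gene with 4 intronic peaks, fell from 77.0 ± 7.97 to 30.8 ± 4.22 CPM, with an intronic log2 fold change of −0.56 (SE 0.243). Man1c1, a mannosidase gene with 15, rose from 5.08 ± 0.247 to 10.8 ± 1.36 CPM, with 0.31 (SE 0.111) in its introns. These examples were chosen after their values were seen. RNA and ATAC libraries were separate samples, so the values stand side by side and are not paired.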

How the data were processed

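ATAC-seq counts came from the table of annotated peaks deposited by the authors, with 1 column per library and expected counts per peak. Values were whole except in 57 peaks (15 intronic), and these were rounded. The gene, gene section and coordinates were used as the table gives them, on mm10 per the submitters' processing notes. Those notes name BWA, Bowtie2, MACS2, Partek 10.0.21.0411 and DESeq2, without a role or an order. Naive CD4 RNA came from a deposited table of CPM that the authors had computed. How peaks were called or joined across libraries is not given in the sources used here.

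All peaks were fitted together in R 4.3.3 with edgeR 4.0.16 (filterByExpr, TMM scaling, glmQLFit and glmQLFTest, group as the only term). P-values were adjusted over all peaks by Benjamini-Hochberg, and a call is an adjusted p under 0.05. The SE of an edgeR fold change is its absolute log2 value divided by the square root of the test's F statistic. It is therefore approximate, above all at low counts. Gene sums add the intronic peaks of a gene and were fitted in the same way with intronic counts as the library total. RNA was tested with limma 3.58.1 on log2(CPM + 1) for genes of at least 1 CPM in at least 3 libraries, so a fold change is on the log2(value + 1) scale and understates that of low genes. DESeq2 1.42.0 was an alternative. Normalised CPM uses TMM-scaled totals, and plain CPM the total in peaks.

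Distances and promoter windows came from RefSeq (GRCm38.p6), and peaks without a value there were left out of distances. Members, lists and tests were chosen with earlier results of these data known. Peaks named in the text are all peaks of Elf4, the strongest intronic peaks, the strongest of the 10 genes with most intronic peaks, the strongest in each list (some are not reported here), and, as none was called, the 5 of lowest p in each direction. Replicate numbers were not treated as pairs: correlations of deviations between same-numbered libraries were −0.09, −0.014 and 0.028.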

Additional observations from a re-analysis of the deposited data

How the results depend on the processing

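The count of 0 intronic peaks called higher in KO-labelled libraries held under 13 of 18 alternatives, and that of 0 called lower under 17 of 18. Exceptions among the higher calls were library totals only (2), DESeq2 (3), no filter on low counts (2) and a fit of intronic peaks only (2). Zfp521 and Arhgap15 made up the calls under library totals and in the fit of intronic peaks only. Leaving out 1 library gave 0 to 53 higher and 0 to 40 lower, and both maxima came from leaving out WT replicate 1, for which the cause was not tested. With the replicate block 0 higher and 0 lower intronic peaks were called. Genes called on summed introns numbered 1, against 3 with no filter (Dgki, Hunk and Thsd7b), 0 with the replicate block (Thsd7b adjusted p = 0.0578, edgeR) and 0 to 15 when 1 library was left out: 15 without WT replicate 1, 7 without WT replicate 3, 2 without KO-labelled replicate 2 and 0 without each of the others. The difference in the share of counts in introns, −0.0999 percentage points and the same with the replicate block, ran from −0.335 to 0.0729 when 1 library was left out. It turned positive without WT replicate 3 (0.0544) and without KO-labelled replicate 2 (0.0729). Without the 20 strongest peaks it was −0.159. Genes with an intronic peak called in RNA numbered 345, 497 with the replicate block, and 168 to 425 when 1 library was left out: 168 without WT replicate 1, 201 without WT replicate 3, 195 without KO-labelled replicate 1 and 188 without KO-labelled replicate 2. The block fit tested 3216 genes, as did the fit without KO-labelled replicate 4 (425 called), against 3240 with all libraries. Its 497 therefore does not show the block alone. Replicate numbers are shared labels only, so the block does not stand for a pairing. Adding far 5′ UTR exon peaks, joining touching peaks, and the shares without the strongest peaks or near starts were chosen after seeing the data, and changed no call. An alternative by the distance to the gene start was not run as planned, since the table used gives no such distance, and RefSeq distances took its place. Depth limits weak peaks: the median SE at means under 10 counts was 0.529 on the log2 scale.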
